A study of Mus musculus with 12 samples.

Results

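The genes of MHC class I peptide loading and of the immunoproteasome were followed in mouse bone marrow-derived dendritic cells with and without Ezh2, before and after LPS. The 10 members are the heavy chains H2-K1, H2-D1 and H2-Q7, the light chain B2m, the peptide transporter genes Tap1 and Tap2, the tapasin gene Tapbp and the catalytic immunoproteasome genes Psmb8, Psmb9 and Psmb10. They were chosen by gene symbol, as every array probe annotated with 1 of these names, which gave 21 of the 45281 probes. Of these, 19 passed the filter (detected on at least 3 of 12 arrays) and 2 did not, namely 1 of the 4 H2-D1 probes, detected on 1 array, and 1 of the 3 B2m probes, detected on 0. Each gene was represented by its brightest detected probe, so that the members are 10 of 10908 genes tested, and all 10 passed the filter on dim probes.

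Class I molecules show peptides from inside the cell to CD8 T cells, and dendritic cells use them to start CD8 T cell responses. Proteasomes cut proteins into peptides, and in stimulated cells the constitutive catalytic subunits can be replaced by the inducible ones encoded by Psmb8, Psmb9 and Psmb10. The TAP1 and TAP2 proteins form the transporter that carries peptides into the endoplasmic reticulum, where tapasin holds it next to empty heavy chains paired with beta-2 microglobulin. Many of these genes are classical targets of interferon and of NF-kappa B, and maturation of dendritic cells with LPS is known to raise class I presentation.

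The design holds 4 groups of 3 arrays, labelled wild type immature, wild type mature, Ezh2 knockout immature and Ezh2 knockout mature. Per the labels, all animals were C57/B6 mice with floxed Ezh2 alleles (Ezh2f/f), so the controls carry the floxed gene too, and the knockout cells came from mice that also carry Mx-cre, an inducible Cre driven by the interferon-responsive Mx promoter. Ezh2 is the methyltransferase of Polycomb repressive complex 2 and marks histone H3 for gene silencing. Marrow was cultured with 20 ng/ml GM-CSF and 10 ng/ml IL-4, and with 10 ng/ml GM-CSF alone from day 2, for 6 or 7 days in all. Mature cells received 100 ng/ml LPS overnight, and some mature cells were kept for 6 h without serum, without a label that says which. No label says which animals or cultures the replicates came from, so the p-values reflect the spread between these arrays alone, which may be technical. In RNA from bulk cells, fewer cells of a type and less RNA per cell cannot be told apart.

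The arrays detected 17892 to 19611 probes each, with median intensities of 108.2 to 119.2. Of the dendritic cell markers, 9 of 10 were tested, among them Itgax, Cd74 and Zbtb46. On the 8 arrays of replicates 1 and 2, Flt3 was detected on 0 and Cd209a on 3. The summed intensity of the 9 was 140303 to 153689 there, most of it from Cd74 and H2-Ab1, at 15.69 to 15.97 (log2). The labels of replicates 1 and 2 followed the check genes. Il6, an LPS-induced cytokine, read 5.17 to 6.45 on the immature and 11.82 to 12.58 on the mature arrays (log2). Cdkn2a, a known Polycomb-repressed gene, read 4.55 to 5.04 in wild type and 7.28 to 7.84 in knockout cells. The brightest Ezh2 probe did not separate the genotypes, whereas a second Ezh2 probe read 6.58 and 6.03 in wild type immature against 4.96 and 5.06 in knockout immature cells, and 6.90 and 7.03 against 6.10 and 6.61 in mature cells. Where these probes lie relative to the deleted part of Ezh2 is not known here, so they check the genotype only in part. The replicate 3 arrays went against their labels: in the pair labelled wild type, Il6 was 11.99 on the immature and 4.93 on the mature array, and Cdkn2a was 8.08 and 7.63 on these arrays and 4.70 and 4.57 on those labelled knockout. The tests below therefore use the 8 arrays of replicates 1 and 2, called sets 1 and 2, and the third set is given apart.

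The members fall in few places in the genome. In RefSeq, 8 of the 10 lie on chromosome 17, with B2m on chromosome 2 and Psmb10 on chromosome 8, and Psmb9, Tap1, Psmb8 and Tap2 follow one another there as neighbouring protein-coding genes. RefSeq promoter windows (build GRCm38.p6), which reach from 250 bases before to 50 bases after a gene's start, were matched by symbol for 9 of the 10 members. The windows of Tap1 and Psmb9 lie head to head on opposite strands and share 275 bases (chr17:34187306-34187580). The windows of the 3 heavy chain genes hold a common match to the kappa B motif, GGGGATTCCC, followed by TTTCACTTC, the reverse of a loose interferon-type core. They are printed because the 3 genes rose together with LPS, beside B2m, whose window holds the stricter interferon core. Each is 80 bases long and starts 20 bases before the first capital. The capitals mark GGGGATTCCC and TTTCACTTC in the heavy chain genes and the interferon core in B2m. Other matches to the general kappa B form given below were left in lower case. They include GGGGAAGCCC in H2-K1 and H2-D1 and GGGAAAGTCC in B2m. H2-K1 has 2 windows, of which the first listed was used.
H2-K1 (chr17:34000399-34000478, minus strand): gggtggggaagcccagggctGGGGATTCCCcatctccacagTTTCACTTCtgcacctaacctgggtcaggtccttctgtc
H2-D1 (chr17:35262903-35262982, plus strand): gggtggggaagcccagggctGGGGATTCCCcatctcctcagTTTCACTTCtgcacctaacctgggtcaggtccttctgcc
H2-Q7 (chr17:35439002-35439081, plus strand): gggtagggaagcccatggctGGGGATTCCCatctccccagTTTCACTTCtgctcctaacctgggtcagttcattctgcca
B2m (chr2:122147528-122147607, plus strand): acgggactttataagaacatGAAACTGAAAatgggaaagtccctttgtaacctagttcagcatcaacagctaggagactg

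The H2-K1 and H2-D1 stretches are identical at 78 of 80 positions. Both hold 11 bases between the 2 capitalised matches, where H2-Q7 holds 10. The GGGGATTCCC matches start at different distances from the annotated starts, 111 bases before it in H2-K1, 171 in H2-D1 and 133 in H2-Q7. The match GGGGATTCCC occurs in the windows of 34 of 27025 genes (0.126%), of which 4 carry an H2 name, namely H2-K1, H2-D1, H2-Q7 and H2-Q6. The loose core GAANNGAAA is in the windows of the same 3 members and in 8.68% of all genes. Both of these were picked after the windows had been seen. Of the other motifs searched, the interferon core, GAAA followed after any 2 bases by GAAA, is in the B2m window alone among the members and in 3.99% of all genes. The STAT-type motif TTCNNNGAA is in the Psmb8 window alone among them and in 9.55%, and the general kappa B form, GGG and CC set 5 bases apart, which includes GGGGATTCCC, is in 6 of the 9 members and in 53.5%. The windows of Tapbp and Psmb10 hold none of the motifs searched. With LPS, as given below, Tapbp was called higher in both genotypes, whereas Psmb10 and B2m were called in neither. The motif results are matches of letters on both strands and no measure of binding.

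The transcripts of 7 of the 10 members rose with LPS in wild type cells, and the same 7 rose in Ezh2-deficient cells: all 3 heavy chains, Tap1, Tapbp, Psmb8 and Psmb9. Their changes ran from 1.67-fold for Psmb8 to 3.20-fold for H2-Q7 in wild type and from 1.88-fold to 4.21-fold for the same genes in knockout cells. B2m, Tap2 and Psmb10 did not pass the test in either genotype. Called means an adjusted p under 0.05 in limma, with Benjamini-Hochberg adjustment over the 10908 genes. Among all genes, 12.6% were called higher in wild type, 15.2% in knockout cells and 11.5% in both. On every member's brightest probe both mature arrays read above both immature ones, in wild type (30.8% of all genes), in knockout cells (31.8%) and in each genotype at once (24.8%). The members' median change was 0.81 log2 units in wild type and 1.17 in knockout cells, beside -0.04 and -0.03 over all genes.

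**Figure D1:**
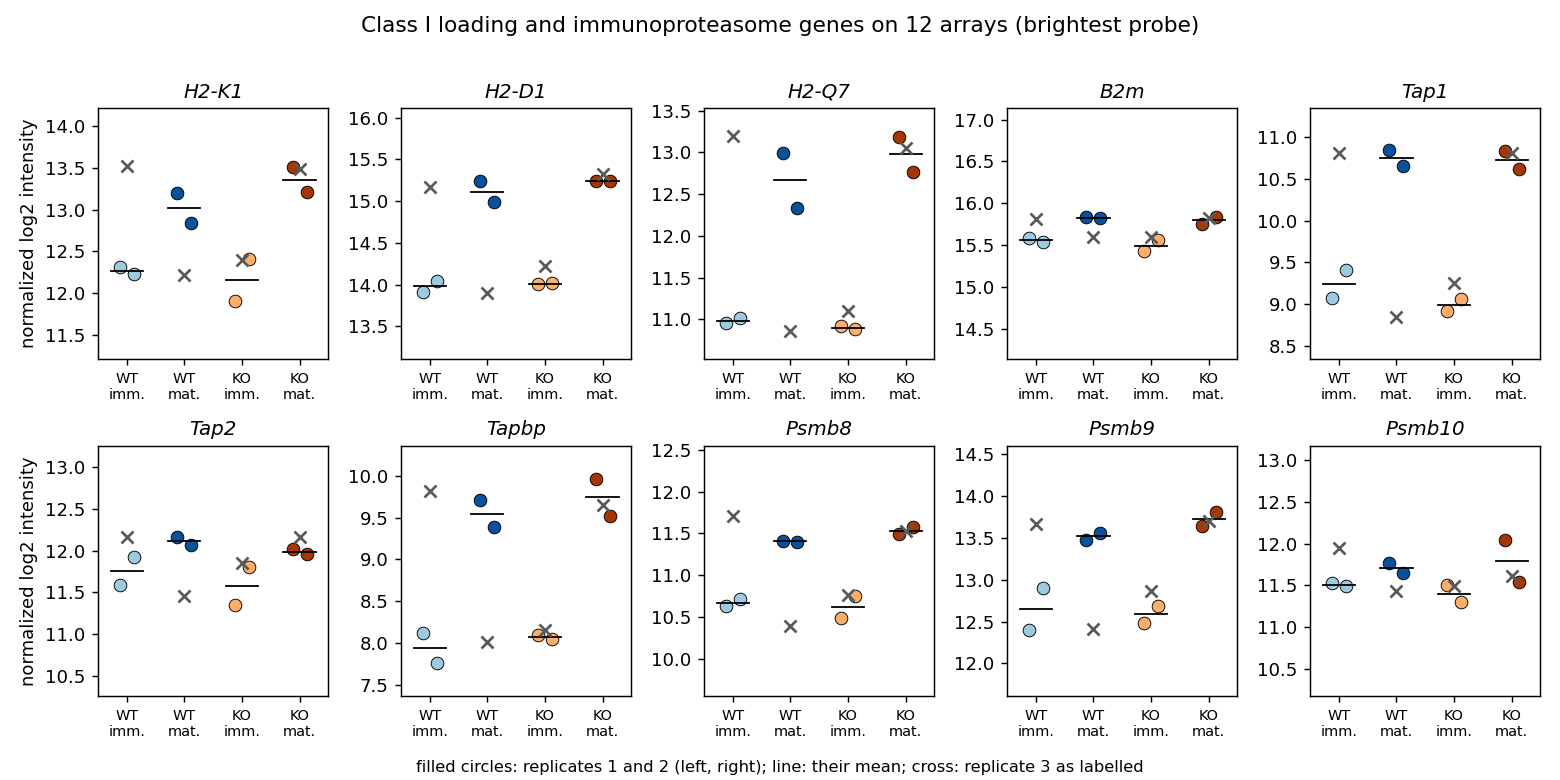
Normalised log2 intensity (vertical axis) of each member's brightest probe on the 12 arrays, by labelled group (horizontal axis). Filled circles are replicates 1 and 2, lines their means and crosses the replicate 3 array as labelled. The circles of mature cells lie above those of immature cells in all 10 panels and in both genotypes, and the cross of wild type immature cells lies at or above the lower mature circle for 9 of the 10 genes.

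H2-K1 and H2-D1 encode classical heavy chains, which bind the peptide and are seen by the T cell receptor. On the wild type arrays H2-D1 read 13.91 and 14.05 before and 15.24 and 14.98 after LPS (replicates 1 and 2, log2). The knockout arrays gave 14.00 and 14.02 before and 15.24 and 15.24 after. The gap between stages was wider than any gap within a group, and the change was 1.13 (SE 0.16, adjusted p = 0.0017, limma) in wild type and 1.23 (SE 0.16, adjusted p = 0.000944) in knockout cells.

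H2-K1 read 12.31 and 12.22 in wild type immature and 13.19 and 12.84 in wild type mature cells. Knockout cells gave 11.90 and 12.41 immature and 13.50 and 13.21 mature, with the widest spread between replicates among the knockout immature values. The change was 0.75 (SE 0.22, adjusted p = 0.034, limma) in wild type and 1.20 (SE 0.22, adjusted p = 0.00411) in knockout cells. The wild type call rests on few arrays: without either immature array or without the first mature array of that genotype, the change was 0.79, 0.70 and 0.57 with adjusted p of 0.109, 0.153 and 0.159.

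H2-Q7 encodes a nonclassical class I molecule of the Q region, known as a form of Qa-2. It read 10.95 and 11.02 in wild type immature, 12.99 and 12.34 in wild type mature, 10.92 and 10.88 in knockout immature and 13.19 and 12.77 in knockout mature cells. No immature array came within 1 log2 unit of a mature one. The change was 1.68 (SE 0.24, adjusted p = 0.00173, limma) in wild type and 2.07 (SE 0.24, adjusted p = 0.000565) in knockout cells, the largest of the 10 in each genotype.

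Class I heavy chain genes are close copies of one another, and the probes' sequences and positions were not used here, so a probe may read more than 1 of them and the values per gene are uncertain to that extent. The detected probes of each heavy chain gene were all called higher in both genotypes, at different sizes. In wild type cells the 3 H2-K1 probes changed by 0.75, 1.15 and 1.79, the 3 H2-D1 probes by 1.06, 1.13 and 1.66, and the 2 H2-Q7 probes by 1.68 and 2.02. The corresponding knockout values were 1.20, 1.43 and 2.06 for H2-K1, 1.20, 1.23 and 1.88 for H2-D1, and 2.07 and 3.14 for H2-Q7.

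B2m encodes beta-2 microglobulin, the light chain that pairs with class I heavy chains. It read 15.58 and 15.54 in wild type immature, 15.83 and 15.82 in wild type mature, 15.43 and 15.55 in knockout immature and 15.75 and 15.84 in knockout mature cells. Within a set and genotype the mature array lay above the immature one by 0.25 to 0.32. The change of 0.27 (SE 0.16, adjusted p = 0.227, limma) in wild type and of 0.30 (SE 0.16, adjusted p = 0.17) in knockout cells was not called, with 95% intervals of -0.09 to 0.63 and -0.06 to 0.66. The second detected B2m probe gave 0.19 and 0.31. This is also among the brightest signals of the arrays, at 45844 to 60167 intensity units or 70.9% to 90.8% of each array's highest value, and whether that limits the change it can show was not tested.

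Tap1 and Tap2 encode the 2 subunits of the peptide transporter, and only Tap1 was called. Tap1 read 9.07 and 9.40 in wild type immature, 10.85 and 10.66 in wild type mature, 8.92 and 9.06 in knockout immature and 10.84 and 10.62 in knockout mature cells. Its stages were separated by more than 1 log2 unit in both genotypes, with a change of 1.51 (SE 0.18, adjusted p = 0.00092, limma) in wild type and 1.74 (SE 0.18, adjusted p = 0.000393) in knockout cells.

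Tap2 read 11.59 and 11.92 in wild type immature and 12.16 and 12.07 in wild type mature cells. In knockout cells it read 11.35 and 11.80 before and 12.02 and 11.96 after LPS. The immature replicates differed by about as much as the stages did, and the change of 0.36 (SE 0.19, adjusted p = 0.2, limma) in wild type and 0.42 (SE 0.19, adjusted p = 0.132) in knockout cells was not called. Each transporter gene has a single probe here.

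Tapbp encodes tapasin, which bridges the transporter and the heavy chain and helps to select stably bound peptides. Its brightest probe read 8.12 and 7.76 in wild type immature, 9.71 and 9.38 in wild type mature, 8.09 and 8.05 in knockout immature and 9.96 and 9.52 in knockout mature cells. All mature arrays lay more than 1 log2 unit above all immature ones, and the change was 1.60 (SE 0.23, adjusted p = 0.00178, limma) in wild type and 1.67 (SE 0.23, adjusted p = 0.00116) in knockout cells. The second Tapbp probe gave 1.35 (SE 0.42, adjusted p = 0.0454 over all detected probes, limma) in wild type and 1.19 (SE 0.42, adjusted p = 0.0621) in knockout cells, where it was not called.

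Psmb8 and Psmb9 encode the immunoproteasome subunits LMP7 and LMP2. Psmb9 read 12.40 and 12.90 in wild type immature, 13.48 and 13.56 in wild type mature, 12.49 and 12.69 in knockout immature and 13.64 and 13.81 in knockout mature cells. Psmb8 read 10.63 and 10.71, 11.42 and 11.40, 10.49 and 10.75, and 11.50 and 11.57 in the same order. For both genes every mature array was above every immature array of either genotype.

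The change of Psmb9 was 0.87 (SE 0.20, adjusted p = 0.0122, limma) in wild type and 1.14 (SE 0.20, adjusted p = 0.00325) in knockout cells. Psmb8 changed by 0.74 (SE 0.15, adjusted p = 0.00785, limma) and 0.91 (SE 0.15, adjusted p = 0.00252), and its second probe was called in both genotypes too, at 0.92 and 1.23. Without the first wild type immature array, the wild type changes of Psmb9 and Psmb8 were 0.62 and 0.70 with adjusted p of 0.0822 and 0.0525, and with H2-K1 also lost, 4 of the 10 members were called in wild type cells.

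Psmb10 encodes MECL-1, the third inducible subunit, and was the only subunit gene of the 3 not called. It read 11.53 and 11.49 in wild type immature, 11.77 and 11.65 in wild type mature, 11.50 and 11.30 in knockout immature and 12.05 and 11.54 in knockout mature cells. The first knockout mature array stood above the other mature values, and the second lay within 0.05 of an immature one. The change was 0.20 (SE 0.19, adjusted p = 0.461, limma) in wild type and 0.39 (SE 0.19, adjusted p = 0.147) in knockout cells, and 0.29 and 0.39 at its second probe, neither of them called. Without the second knockout mature array the knockout change was 0.64 with an adjusted p of 0.0373, and without the first it was 0.14 with an adjusted p of 0.603.

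**Figure D2:**
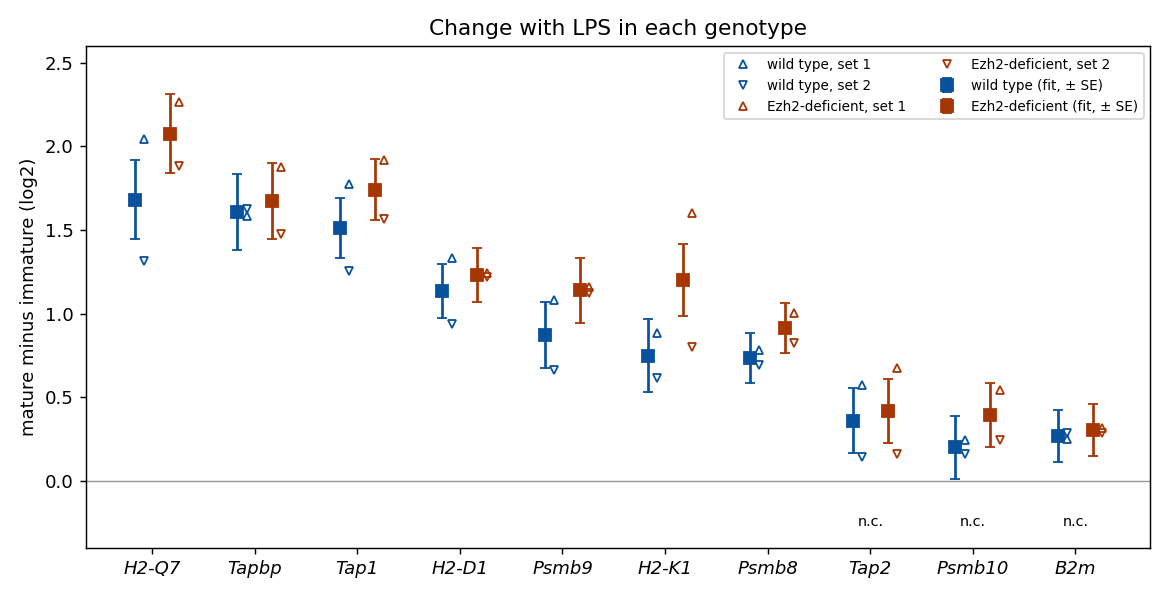
Change with LPS (mature minus immature, log2, vertical axis) of each member's brightest probe in wild type (blue) and Ezh2-deficient cells (orange). Squares with bars are the limma estimate ± SE, triangles the difference within set 1 (up) and set 2 (down), and n.c. marks genes called in neither genotype. All estimates lie above 0, and those of Tap2, Psmb10 and B2m are the 3 smallest in each genotype.

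The changes within a set pair arrays by replicate number, which no label ties to a shared animal or day. Nor are the 4 changes shown to be independent, since differences between the sets correlated between groups (r = 0.218 to 0.717). The SDs and the test below describe these pairings alone. Ordered by the mean of the 4 changes (2 sets in each of 2 genotypes), H2-Q7 came first with 1.88 ± 0.41 (SD, n = 4), followed by Tapbp (1.64 ± 0.17) and Tap1 (1.63 ± 0.29). H2-D1 followed with 1.18 ± 0.17, then Psmb9 with 1.01 ± 0.23, H2-K1 with 0.97 ± 0.43 and Psmb8 with 0.82 ± 0.13. Tap2 (0.39 ± 0.28), Psmb10 (0.30 ± 0.17) and B2m (0.29 ± 0.03) closed the order. Of the 9 pairs of neighbours, 3 were ordered the same way in all 4 changes, namely Tap1 above H2-D1, H2-D1 above Psmb9, and Psmb8 above Tap2, with differences of 0.44, 0.18 and 0.44. With 4 changes, the smallest p that a two-sided exact sign-flip permutation test can give is 0.125, which these 3 pairs reached, so no neighbours were shown to differ. Tap1 and Tap2, the 2 subunits of 1 transporter, did not overlap in their 4 changes, which ran from 1.25 to 1.92 and from 0.14 to 0.67. As they are not neighbours in the order, this pair was not tested.

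The size of the change differed between the sets. At the brightest probes it was larger in set 1 than in set 2 for 8 of 10 members in wild type and for 10 of 10 in knockout cells. Over all genes, those that fell with LPS included, 48.8% and 47.5% had the higher signed change in set 1. The second B2m probe changed less in set 1, with 0.14 and 0.25 in wild type and 0.18 and 0.44 in knockout cells (set 1 first). Of the brightest probes, H2-K1 in knockout cells showed the widest gap, with 1.60 in set 1 and 0.80 in set 2. Another H2-K1 probe gave 2.01 and 0.85 there. The labels do not say in what the sets differ, or whether the arrays of a set share an animal or day. On the immature arrays of both genotypes, every tested neutrophil marker but Cxcr2 read higher in set 1 than in set 2. S100a9, for example, read 13.07 and 11.65 in wild type and 12.56 and 9.84 in knockout cells (set 1 first, log2). Whether this bears on the members' changes was not tested.

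**Figure D3:**
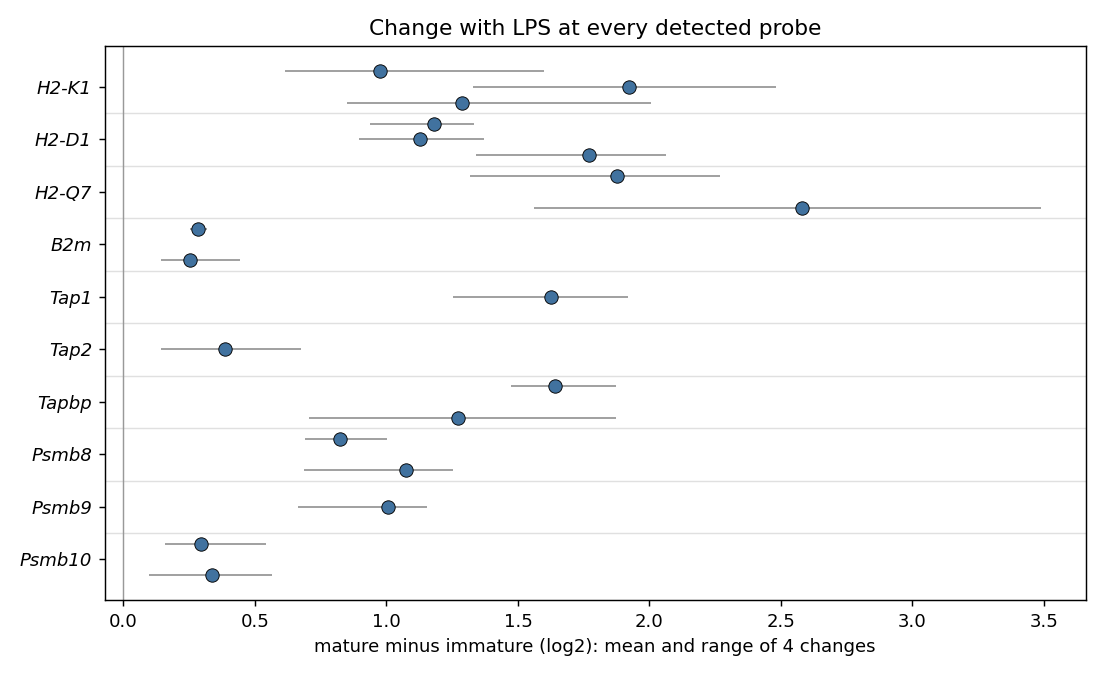
Change with LPS (log2, horizontal axis) at the 19 detected probes of the 10 members (rows). Points are the mean and lines the range of the 4 changes (2 sets in each of 2 genotypes). The lowest single change of any probe is 0.10, at Psmb10, so no probe changed downward in either set or genotype.

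Over all probes, 14 of the 19 detected were called higher in wild type and 13 in knockout cells, beside 12.3% and 14.5% of all 21049 detected probes, and 0 were called lower. The probes not called belonged to B2m, Tap2 and Psmb10 in wild type cells, with the second Tapbp probe added in knockout cells.

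No member was called for Ezh2 deficiency. The number of members called was 0 in immature cells, 0 in mature cells, 0 averaged over both stages and 0 for the difference between the LPS responses, with limma. An unadjusted p under 0.05 was reached by 0 of the members' brightest probes in each of these comparisons. Of their other probes, the second H2-Q7 probe had 1 in mature cells, where it read higher in the knockout by 0.83 (95% interval 0.09 to 1.57, unadjusted p = 0.0314, adjusted p = 1 over all detected probes, limma). Among all 10908 genes, 0.0275%, 0.0183%, 0.055% and 0% were called, and 333, 522, 665 and 169 genes had an unadjusted p under 0.05.

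In immature cells the members' differences, knockout minus wild type, ran from -0.25 for Tap1 to 0.13 for Tapbp with a median of -0.07, and 8 of the 10 were below 0. In mature cells they ran from -0.13 for Tap2 to 0.34 for H2-K1 with a median of 0.13, and 7 of the 10 were above 0. The 95% intervals of single genes reached from -0.67 to 0.66 in immature and from -0.57 to 0.86 in mature cells at their outer ends. With 2 arrays a group, the values do not exclude a genotype difference of any size inside a gene's own interval.

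**Figure D4:**
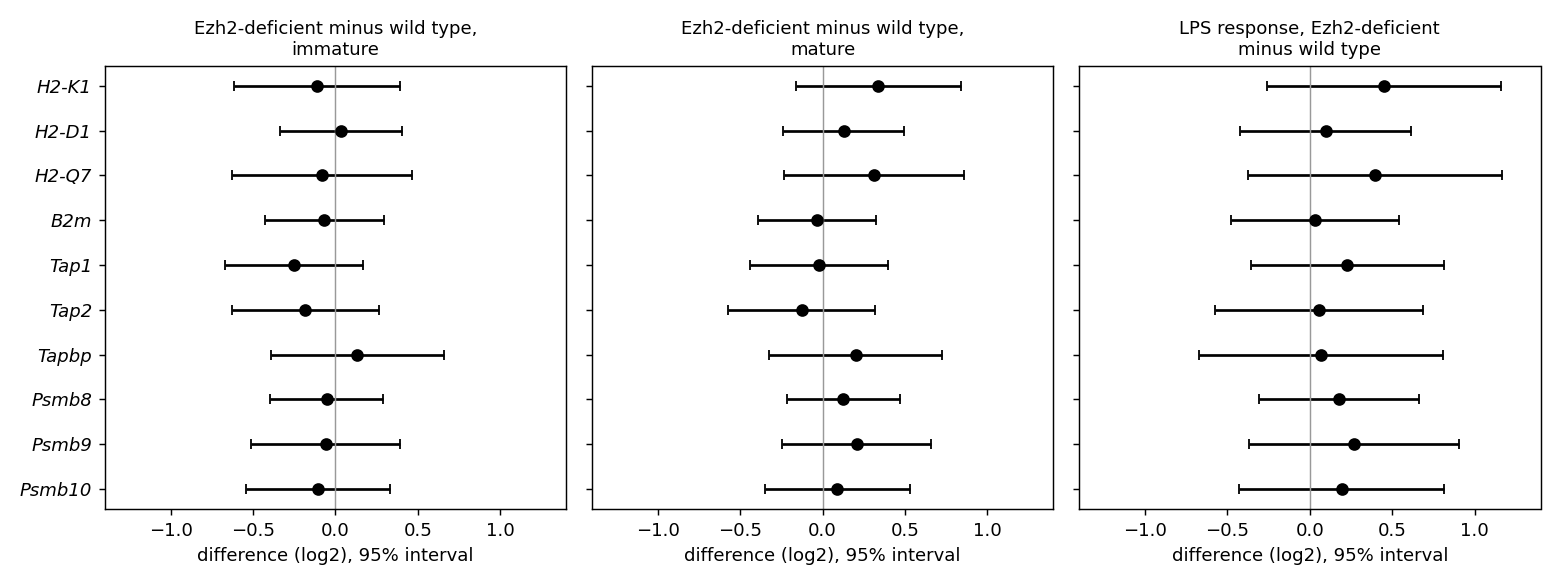
Difference between knockout and wild type cells (log2, horizontal axes) of each member's brightest probe, in immature cells, in mature cells and as the difference between the LPS responses. Points are limma estimates and bars their 95% intervals. Every interval includes 0, and the 10 points of the right panel all lie above 0.

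The LPS change was larger in knockout than in wild type cells for 10 of 10 members, by 0.03 for B2m to 0.45 for H2-K1 with a median of 0.19, and no single difference passed the test (smallest unadjusted p of 0.18, adjusted p = 1, limma). Over all genes, 49.7% had the larger change in knockout cells. The members moved together across the arrays, so that these 10 signs are not independent of one another. Within set 1 the knockout change was the larger for 9 of 10 members (48.1% of all genes), and within set 2 for 8 of 10 (50.5%). These shares of all genes compare signed changes and include the genes that fell with LPS. A share among genes that rose was not computed. More genes were called with LPS in knockout than in wild type cells, 1662 against 1377 higher and 2264 against 1930 lower, so a larger change there need not be particular to the members. The maturation markers pointed the same way, with a larger change in knockout cells for 7 of the 7 tested and a median difference of 0.34, none of them called, and their part in the result was not tested. The second H2-Q7 probe showed the widest gap between genotypes, with a change of 2.02 in wild type and 3.14 in knockout cells. Its difference of 1.12 (SE 0.46, unadjusted p = 0.0381, limma) had an adjusted p of 1 over all detected probes. The second Tapbp probe went the other way, with a difference of -0.16. Leaving out 1 of the 8 arrays turned the difference below 0 for 5 members in at least 1 case each, to -0.17 for Tap2, -0.15 for Tapbp, -0.06 for Psmb10 and -0.03 for H2-D1 and B2m at the lowest.

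Other cell markers moved with the LPS comparison. Maturation markers were called higher for 5 of 7 tested in wild type and 7 of 7 in knockout cells, and their summed intensity was 14344 to 21127 before and 37651 to 66432 after LPS in wild type, and 14802 to 22451 before and 53458 to 73649 after in knockout cells. Macrophage markers were called lower for 4 of 7 in each genotype, Csf1r and the complement genes C1qa, C1qb and C1qc. The other 3, Adgre1, Mertk and Fcgr1, were not called. The change was above 0 for 3 of the 7 in wild type and for 2 in knockout cells. The sums of the 7 were 20466 to 21105 before and 8834 to 14159 after LPS in wild type. In knockout cells they were 14609 to 17456 before and 7256 to 10765 after.

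The neutrophil list had 1 of 8 lower in each genotype, with sums of 10216 to 25990 before and 4229 to 9451 after LPS in wild type, and of 4202 to 19778 and 2128 to 5175 in knockout cells. T and NK cell markers had 2 of 4 lower in each, Cd3d and Cd3g. The sums were 456 to 610 before and 121 to 126 after LPS in wild type. In knockout cells they were 2216 to 3230 before and 120 to 144 after. Before LPS the sums were mostly Cd3g, which read 10.97 and 11.49 (log2) in knockout immature cells. Of the others, Cd3e was detected on 3 and Klrb1c on 1 of the 8 arrays. In immature cells Cd3g was also called higher in the knockout, by 3.0 (SE 0.26, adjusted p = 0.0177, limma). Mast cell and basophil markers had 1 of 5 lower in each genotype, with sums of 1685 to 2466 before and 1143 to 1702 after in wild type and 2106 to 2110 and 1376 to 1381 in knockout cells. For B cells 1 of 5 markers, Cd79b, was tested and was called higher in knockout cells, with sums of 43 to 50 before and 102 to 152 after LPS. Cd4, Cd8a, Ncr1, Ms4a2, Mcpt4 and Pax5 were detected on 0 of the 8 arrays. Whether these signals come from the cells the lists are named for, and their part in the members' changes, was not tested.

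The neighbouring genes of the pathway were counted from lists chosen, like the members, with earlier results of these data known. Among other class I and class I-like heavy chains, 9 of the 12 tested (of 19 listed) were called higher in each genotype and 0 lower. In wild type and knockout cells respectively, H2-T10 changed by 2.80 and 3.03, H2-Q6 by 2.46 and 3.03, H2-Q8 by 2.36 and 2.93, H2-T22 by 1.93 and 2.17 and Cd1d1, which presents lipids, by 1.48 and 1.81. H2-T23, the Qa-1 gene whose product binds the receptor NKG2A, changed by 1.48 and 1.61, H2-Q5 by 1.45 and 1.55, and H2-M3, which presents formylated peptides, by 1.15 and 1.15. H2-T24 was not well above background on the immature arrays and was at least 1.76-fold higher in wild type (adjusted p = 0.0145, limma) and at least 1.91-fold higher in knockout cells (adjusted p = 0.00392). H2-Q6, H2-Q8 and the other Q genes may share probe signal with H2-Q7.

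**Figure D5:**
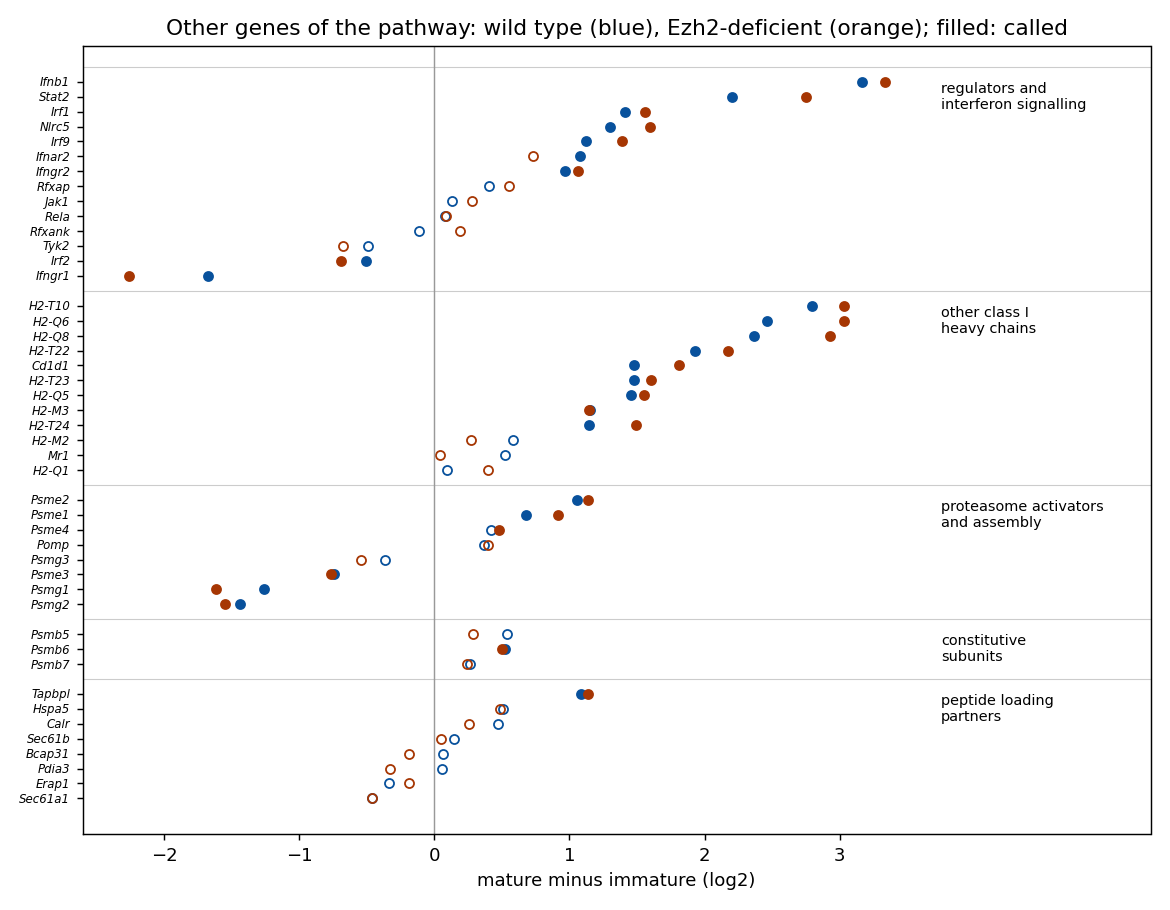
Change with LPS (log2, horizontal axis) of the tested genes of 5 lists around the class I pathway (rows), in wild type (blue) and Ezh2-deficient cells (orange). Filled points were called and open points were not. Class I heavy chains lie at or above 0, whereas the proteasome assembly genes Psmg1 and Psmg2 and the receptor gene Ifngr1 lie below -1.

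The proteasome genes did not move as a block. The constitutive subunits that the inducible ones replace were all tested: Psmb6, the counterpart of Psmb9, was called higher in both genotypes, by 0.52 (SE 0.14, adjusted p = 0.028, limma) and 0.50 (SE 0.14, adjusted p = 0.0285), whereas its second probe, at 0.50 and 0.52, was not called (adjusted p of 0.0697 and 0.0543 over all detected probes). Psmb5, the counterpart of Psmb8, gave 0.54 and 0.28, and Psmb7, the counterpart of Psmb10, 0.26 and 0.24, without a call. Of the 3 other Psmb7 probes, 1 was called, in knockout cells (0.54, adjusted p = 0.0468, limma).

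Of 8 tested activator and assembly genes (10 listed), 2 were called higher and 3 lower in wild type and 3 and 3 in knockout cells. Psme1 and Psme2, whose products form the PA28 cap that is known to accompany the immunoproteasome, rose by 0.68 and 1.06 in wild type and by 0.92 and 1.14 in knockout cells. Psme4 gave 0.42 in wild type, without a call, and rose by 0.48 in knockout cells (adjusted p = 0.038, limma). Its second, dimmer probe was called in both genotypes over all detected probes, at 1.06 and 0.85 (adjusted p of 0.0214 and 0.0446, limma). Psme3, which encodes a nuclear cap protein, fell by 0.74 and 0.77, and the assembly chaperone genes Psmg1 and Psmg2 fell by 1.26 and 1.44 in wild type and by 1.62 and 1.55 in knockout cells.

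Among the partners of peptide loading, 1 of 8 tested (11 listed) was called, and none lower. Tapbpl, which encodes the tapasin relative TAPBPR, rose by 1.09 (SE 0.15, adjusted p = 0.00172, limma) in wild type and 1.14 (SE 0.15, adjusted p = 0.0011) in knockout cells. A second, dim Tapbpl probe gave 0.21 and 0.81 without a call. The list's median was 0.11 and -0.07, and Calr, Pdia3 and Erap1 were not called.

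Regulators and interferon signalling genes were called higher for 7 of 14 tested (18 listed) in wild type and 6 in knockout cells, and lower for 2 in each. Nlrc5, the transactivator of class I genes, rose by 1.30 (SE 0.23, adjusted p = 0.0047, limma) in wild type and 1.60 (SE 0.23, adjusted p = 0.00148) in knockout cells. Irf1, an activator of class I and immunoproteasome genes, rose by 1.41 and 1.56. Stat2 and Irf9, subunits of the type I interferon transcription factor ISGF3, rose by 2.20 and 1.12 in wild type and by 2.75 and 1.39 in knockout cells. Ifnb1, the interferon beta gene, was not well above background on the immature arrays and was at least 5.84-fold higher after LPS in wild type (adjusted p = 0.000982, limma) and at least 6.11-fold in knockout cells (adjusted p = 0.000589).

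The receptor genes moved in both directions. Ifngr2 rose by 0.97 and 1.06 at its brightest probe. Its other probes gave 0.79 and 0.83 in wild type, where the first was called (adjusted p of 0.0387 and 0.0556, limma), and 0.47 and 0.33 in knockout cells, where neither was (adjusted p of 0.169 and 0.408). Ifnar2 rose by 1.08 in wild type cells and gave 0.73 in knockout cells without a call, and its 2 other probes were not called in either genotype. Ifngr1, the ligand-binding chain of the interferon gamma receptor, fell by 1.68 in wild type and by 2.26 in knockout cells. Irf2, a repressor of some interferon targets, fell by 0.50 and 0.69. Its wild type call was marginal, with an adjusted p of 0.049 over genes and 0.0578 over all detected probes (limma). No gene of these 5 lists was called in any genotype comparison.

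Across the 8 arrays of sets 1 and 2 the members followed one another, as a description over points that share their stage. The highest correlation between brightest probes was that of H2-D1 with H2-Q7 (r = 0.989, n = 8), and Tap1 came closest to H2-D1 (r = 0.983). Tap2 (r = 0.843, with Tap1) and Psmb10 (r = 0.804, with H2-Q7) had the lowest best matches. Outside the members and lists, the genes most like the members' mean profile were Cdkn1a (r = 0.997), Ube2z (0.996), Traf6 (0.996), Amz2 (0.995) and Il4ra (0.995). With 2 stages dominating the arrays, 516 of the 10908 genes (4.73%) had r above 0.95.

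The members' values in the third set followed Il6 and not the stage labels in the pair labelled wild type. The array labelled wild type immature was above both other wild type immature arrays for 10 of 10 members (40.2% of all genes) and at or above the lower wild type mature array for 9 (63.2%). The array labelled wild type mature was below both wild type mature arrays for 10 of 10 (38.9%) and at or below the higher immature array for 9 (68.9%). H2-Q7, for example, was 13.19 and 10.86 on the arrays so labelled, immature first, against 11.10 and 13.05 on the arrays labelled knockout immature and mature. In the pair labelled knockout the stage labels and the values ran the same way, with the mature array above the immature one for 10 of 10 members (47.4% of all genes), by 0.12 for Psmb10 to 1.95 for H2-Q7.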

How the data were processed

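RNA amplified from 12 samples was hybridised to Illumina bead arrays. The authors deposited, per the file headers, each probe's mean bead intensity with its detection p-value (45281 probes). A second deposited table holds log2 values whose columns share 1 distribution (median 6.84), with ranks equal to those of the intensities (Spearman 1) and quantiles within 0.00063 of log2 of their rank means. Per the submitters' processing notes, R 2.15.2, limma and BeadStudio were used, at steps not stated, and the genome build is not given in the sources used here. At most 1 probe had equal intensity on a pair of arrays.

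The intensities were normalised over 12 arrays by limma's neqc (limma 3.58.1 under R 4.3.3; offset 16), which estimated the negative controls from detection p-values. The offset understates changes of dim probes. The filter kept 21049 probes, those detected (p under 0.05) on 3 or more arrays, and the probe with the highest mean stood for its gene. Probe symbols came from the platform annotation: 34885 probes had 1 symbol, 18 several and 10378 none, and 34807 symbols were brought up to date through gene identifiers. The means of 4 groups were fitted over the 8 arrays of replicates 1 and 2 with lmFit, contrasts.fit and eBayes (trend = TRUE), two-sided, with Benjamini-Hochberg adjustment. Other probes of a member were fitted over all detected probes. The number of arrays limits the precision. A bound ("at least") sets a group that was not well above background on either array at the higher of its own value and the lowest normalised signal of a detected probe on each array. The fit was tested on simulated data.

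The members and lists were chosen with earlier results of these data known. All members were named, and listed genes where they were called with LPS or where fewer than 6 of a list were tested; Cd3g in the genotype comparison, the uncalled genes named from the loading list and the marker names were chosen after their values were seen. The 5 most similar genes are those with the highest Pearson correlation with the mean of the members' standardised values, without predicted genes. Alternatives were the deposited log2 values, no background correction, other filters, all probes, other sets of arrays, a replicate block and no intensity trend.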

Additional observations from a re-analysis of the deposited data

Results flagged for a closer look

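The third set of arrays, which no comparison of replicates 1 and 2 uses, carries a signal that goes against its labels. On the array labelled wild type immature, 10 of 10 members were higher than on both wild type immature arrays of sets 1 and 2, beside 40.2% of all genes. This rests on single arrays and was not tested.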

How the results depend on the processing

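The number of members called with LPS was 7 in wild type and 7 in knockout cells with the deposited log2 values, with quantile normalisation alone, without the filter, with detection on at least 6 of 12 arrays, with all probes tested, over 10 arrays, without the intensity trend and with a replicate block. Over all 12 arrays as labelled it was 0 and 0, where Psmb10 in wild type cells turned to -0.038. The deposited log2 values and quantile normalisation alone gave the same changes and counts, so they are not separate checks. Leaving out 1 array gave 4 to 7 members in wild type, the 4 without the first wild type immature array, and 7 to 8 in knockout cells; the genotype comparisons and the difference between the LPS responses gave 0 in every setting. Differences between sets 1 and 2 correlated between groups (r = 0.218 to 0.717). With 2 pairs and no label of a shared animal or day, the main fits did not take the numbers as pairs. The replicate block raised the genes called higher and lower to 1966 and 2523 in wild type and 2184 and 2804 in knockout cells, from 1377 and 1930, and 1662 and 2264. For Ezh2 deficiency it gave 6 and 10 genes in immature cells, 7 and 6 in mature cells and 27 and 32 over both stages, from 3 and 0, 2 and 0, and 5 and 1, with 0 members among them. The 10 arrays leave out the pair labelled wild type 3 and keep the pair labelled knockout 3 as knockout, although its Cdkn2a (4.70 and 4.57) read like wild type, so the genotype counts there rest on those labels. The cause of these shifts was not tested. Dim probes have less signal over background and so less certain changes.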
